A study of Mus musculus with 6 samples.

Results

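The forebrain-type homeobox genes described here were Dlx1, Dlx2, Dlx5, Dlx6, Emx2, Barhl1, Barhl2, Nkx2-1 and Six6. Every probe set annotated to exactly 1 of these gene symbols was taken, which gave 10 of the 45037 non-control probe sets of the array and 9 of its 18193 singly named genes. Barhl1 had 2 probe sets and each other gene had 1. RNA came from midbrain floor plate and from the adjacent, non-overlapping ventral lateral midbrain of C57BL/6 embryos at embryonic day 10.5, with no mutation or treatment named in either group. Each region had 3 samples, numbered replicates 1 to 3, each a pool of tissue from 6 embryos of mixed sex. From each pool 5 ng of total RNA was amplified and hybridised to an Affymetrix mouse array.

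Homeobox genes encode transcription factors that bind DNA through a homeodomain. Dlx genes lie in the genome as neighbouring pairs, Dlx1 beside Dlx2 and Dlx5 beside Dlx6, and are known for driving the differentiation of GABAergic neurons in the ventral forebrain and for patterning the pharyngeal arches. Emx2 patterns the dorsal telencephalon, the BarH-like genes Barhl1 and Barhl2 act in diencephalic and other neurons, Nkx2-1 specifies the hypothalamus and the medial ganglionic eminence, and Six6 acts in the eye, the hypothalamus and the pituitary. In the midbrain, GABAergic neurons are known to be selected by Gata2, Tal and Helt factors rather than by Dlx genes. The comparison addressed here is whether transcripts of these genes differed between the regions, and whether the replicates of a region agreed.

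The promoters of the 4 genes on which the results turn are shown first, as the 250 bases before the transcription start in RefSeq (mouse build GRCm38.p6, each 5′ to 3′ on the gene's own strand). Dlx1 and Dlx2 are shown because they were high together in 1 array, and Emx2 and Barhl2 because they were lower in floor plate. Capitals mark CCAAT, or its reverse complement ATTGG, and CACGTG, which is its own reverse complement. The Dlx1 window is chr2:71529195-71529444 on the plus strand, Dlx2 is chr2:71546755-71547004 on the minus strand, Emx2 is chr19:59458440-59458689 on the plus strand and Barhl2 is chr5:106458167-106458416 on the minus strand.
Dlx1: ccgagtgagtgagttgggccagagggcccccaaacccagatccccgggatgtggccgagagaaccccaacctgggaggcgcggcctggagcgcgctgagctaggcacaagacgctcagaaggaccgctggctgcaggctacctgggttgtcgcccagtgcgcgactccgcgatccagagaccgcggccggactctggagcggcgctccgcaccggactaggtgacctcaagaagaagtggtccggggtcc
Dlx2: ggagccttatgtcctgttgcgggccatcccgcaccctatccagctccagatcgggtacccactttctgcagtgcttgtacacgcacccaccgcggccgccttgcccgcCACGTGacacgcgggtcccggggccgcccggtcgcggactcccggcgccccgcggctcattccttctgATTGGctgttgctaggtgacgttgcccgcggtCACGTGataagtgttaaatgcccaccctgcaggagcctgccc
Emx2: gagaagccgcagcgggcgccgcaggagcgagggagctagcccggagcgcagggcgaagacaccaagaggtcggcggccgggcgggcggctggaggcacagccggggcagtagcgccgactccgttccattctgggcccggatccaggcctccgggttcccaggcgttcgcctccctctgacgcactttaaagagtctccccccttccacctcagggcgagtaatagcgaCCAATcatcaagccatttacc
Barhl2: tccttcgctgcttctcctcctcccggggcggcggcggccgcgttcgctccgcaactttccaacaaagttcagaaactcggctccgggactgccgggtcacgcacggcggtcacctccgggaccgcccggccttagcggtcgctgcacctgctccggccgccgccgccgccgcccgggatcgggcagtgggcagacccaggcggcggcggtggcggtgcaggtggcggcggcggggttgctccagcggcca
These windows were rich in G and C, with 68% for Dlx1, 66.4% for Dlx2, 67.2% for Emx2 and 74.8% for Barhl2, against a median of 52.4% over the 32851 mouse promoters of the same length. The Dlx2 window held CACGTG at 2 places, a motif found in 6.02% of these promoters, while the Dlx1 window held none of the motifs searched. CCAAT in either orientation stood in the Dlx2 and Emx2 windows and in 33.8% of all promoters. TAATTA, a core sequence that many homeodomains bind and which is its own reverse complement, and TATAAA (or TTTATA) were in none of these 4 windows. They were in 4.84% and 12.4% of all promoters. In the 50 bases after the start, TAATTA began at base 37 for Emx2 and at base 30 for the first of the 2 Barhl1 starts. No absent motif says anything about binding of a factor.

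The deposited values are log ratios, taken here as log2, in which each probe set is centred on its median across the arrays. They say how the arrays differ and hold no level, so a probe set that is flat over the 6 arrays cannot be told apart from one whose transcript was not detected. They also cannot be compared between genes. In these bulk samples, fewer cells of a type and less RNA per cell cannot be told apart. The floor plate list is no independent check of the labels, since it was chosen with earlier results of these data known. It had 7 of 8 genes higher in floor plate samples on at least 1 probe set and none lower. Ventral lateral replicates differed in it, with list means of -1.68, -0.92 and -2.22 in replicates 1, 2 and 3. Ventral lateral replicate 1 stood apart in the mean of the midbrain and isthmus list, at -1.51 against 0.18 and 0.29 in replicates 2 and 3. The genes of that list differed in replicate 1, with Wnt1 at -5.10 and En1 at -2.87, but Otx2 at 0.03 and Pax7 (probe set 1444596_at) at 1.67.

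Emx2 and Barhl2 were lower in floor plate, and no member passed the test as higher. They made up 2 of the 10 member probe sets (limma, Benjamini-Hochberg adjusted p under 0.05), where 2.01% of all probe sets were lower and 2.70% were higher. By genes this was 2 of 9, against 3.25% of all genes with a lower probe set. At an unadjusted p under 0.05 limma again gave 2 member probe sets lower and 0 higher. The same 2 probe sets were those whose floor plate and ventral lateral values did not overlap, against 11.0% of all probe sets that were separated in this direction and 11.5% in the other. The median log2 fold change (floor plate minus ventral lateral) was -0.77 over the 10 member probe sets and -0.0040 over all probe sets. The member median lay between the 2 Barhl1 probe sets (-0.84 and -0.70), neither of which passed. Dlx1 and Dlx2 lay below it (-0.87 and -1.26), but were at 0.13 and -0.45 without ventral lateral replicate 2.

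**Figure D1:**
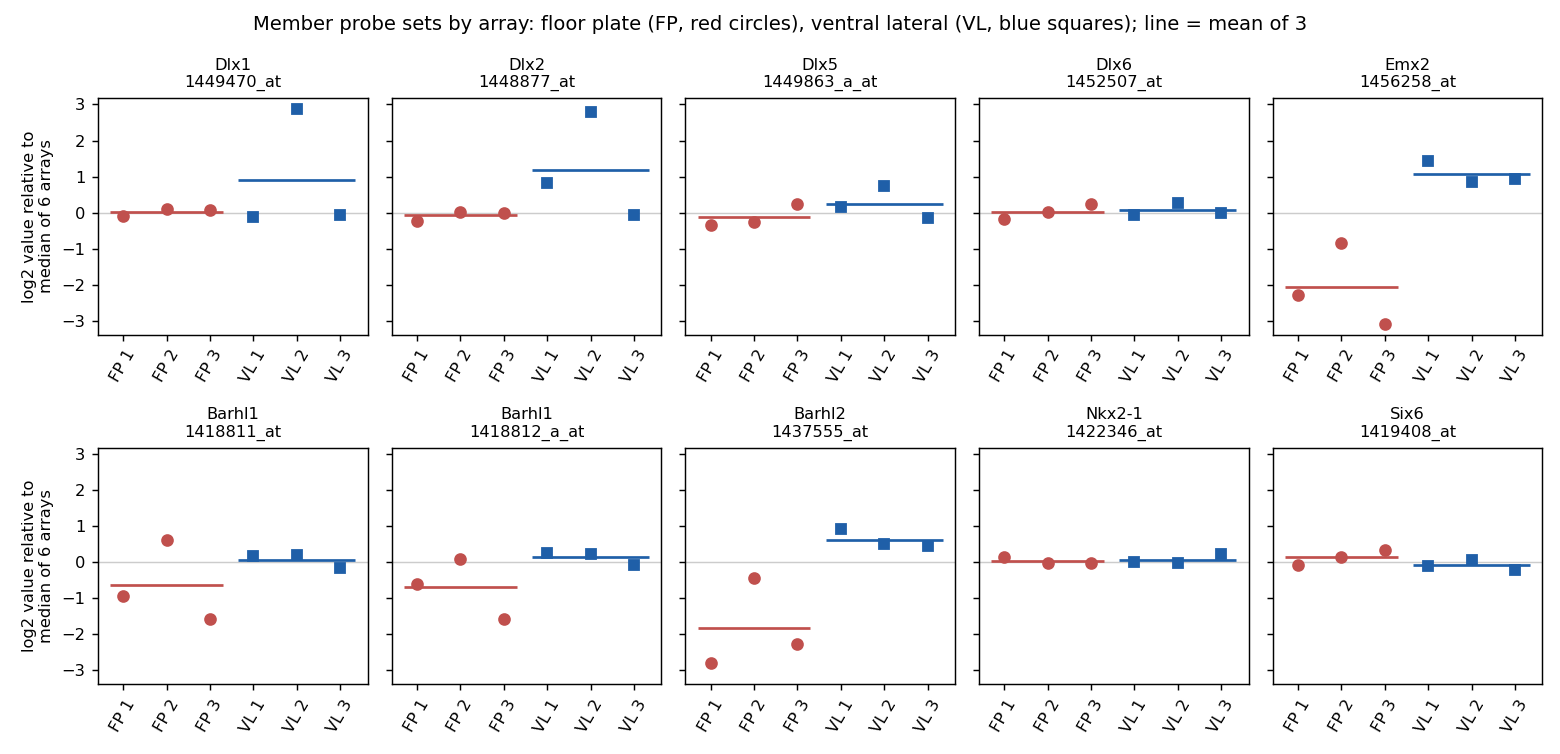
Log2 value relative to the median of the 6 arrays (y axis) for each of the 10 member probe sets (panels) in the 3 floor plate arrays (FP, red circles) and the 3 ventral lateral arrays (VL, blue squares), with a line at the mean of each group. Dlx1 and Dlx2 reach 2.88 and 2.79 in ventral lateral replicate 2, and Emx2 and Barhl2 are separated between the regions with floor plate replicate 2 nearest to the ventral lateral values.

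Dlx1 was high in a single array. Its log2 values were -0.09, 0.10 and 0.08 in floor plate replicates 1, 2 and 3, against -0.12, 2.88 and -0.08 in ventral lateral replicates 1, 2 and 3. The 5 arrays other than ventral lateral replicate 2 spanned 0.22, and replicate 2 lay 2.78 above the highest of them, which is 6.87-fold. The regions overlapped, and the difference did not pass (log2 fold change -0.87, SE 0.73, 95% confidence interval -2.56 to 0.82, limma adjusted p = 0.643). Without ventral lateral replicate 2 the log2 fold change was 0.13 (limma adjusted p = 0.735, against 0.489 to 0.879 over all alternatives).

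Dlx2, the neighbour of Dlx1, was high in the same array and raised to a smaller extent in another. Its log2 values were -0.23, 0.01 and -0.01 in floor plate replicates 1, 2 and 3, against 0.82, 2.79 and -0.07 in ventral lateral replicates 1, 2 and 3. Ventral lateral replicate 2 lay 1.97 above the highest other array, which is 3.92-fold. Ventral lateral replicate 1 lay 0.82 above the highest of the floor plate arrays and ventral lateral replicate 3, where Dlx1 showed no such value. Ventral lateral replicate 3 lay among the floor plate arrays for both genes. The regional difference of Dlx2 did not pass (log2 fold change -1.26, SE 0.62, 95% confidence interval -2.71 to 0.19, limma adjusted p = 0.38), and it was -0.45 without ventral lateral replicate 2.

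The other Dlx pair moved little. Dlx5 had log2 values of -0.34, -0.27 and 0.22 in floor plate replicates 1, 2 and 3, against 0.15, 0.75 and -0.15 in ventral lateral replicates 1, 2 and 3. Its highest value was again in ventral lateral replicate 2, there 0.52 above the next array, but floor plate replicate 3 lay above ventral lateral replicates 1 and 3 (log2 fold change -0.38, SE 0.25, limma adjusted p = 0.525). Without ventral lateral replicate 2 the log2 fold change of Dlx5 was -0.13, the smallest among the 6 fits that left out a sample, and the largest was -0.58 without ventral lateral replicate 3. Dlx6 had log2 values of -0.19, 0.0029 and 0.24 in floor plate replicates 1, 2 and 3, against -0.08, 0.26 and -0.0029 in ventral lateral replicates 1, 2 and 3. The 6 arrays spanned 0.45, with the regions mixed, and the 95% confidence interval of the log2 fold change was -0.38 to 0.29 (limma adjusted p = 0.928). RefSeq's promoter table used here was matched by 7 of the 9 genes, and Dlx5 and Dlx6 were not among them.

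Over all 45037 probe sets, Dlx1 and Dlx2 ranked 1 and 2 for the excess of ventral lateral replicate 2 over the highest of the other 5 arrays, and they were the only 2 probe sets in which that excess was over 1. Dlx5 ranked 84 and Dlx6 ranked 4743. Other arrays had more probe sets more than 1 above all others, with 10, 6 and 11 in floor plate replicates 1, 2 and 3, and 26 and 3 in ventral lateral replicates 1 and 3. Ventral lateral replicate 2 had no probe set more than 1 below all others, while the other arrays had 1 to 43. Ventral lateral replicate 2 was therefore the array with the fewest such probe sets, and both of its high ones were members. The members were chosen with earlier results of these data known, so these ranks describe the array and test nothing. A value in 1 pool has no replicate, so its excess was not tested.

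**Figure D2:**
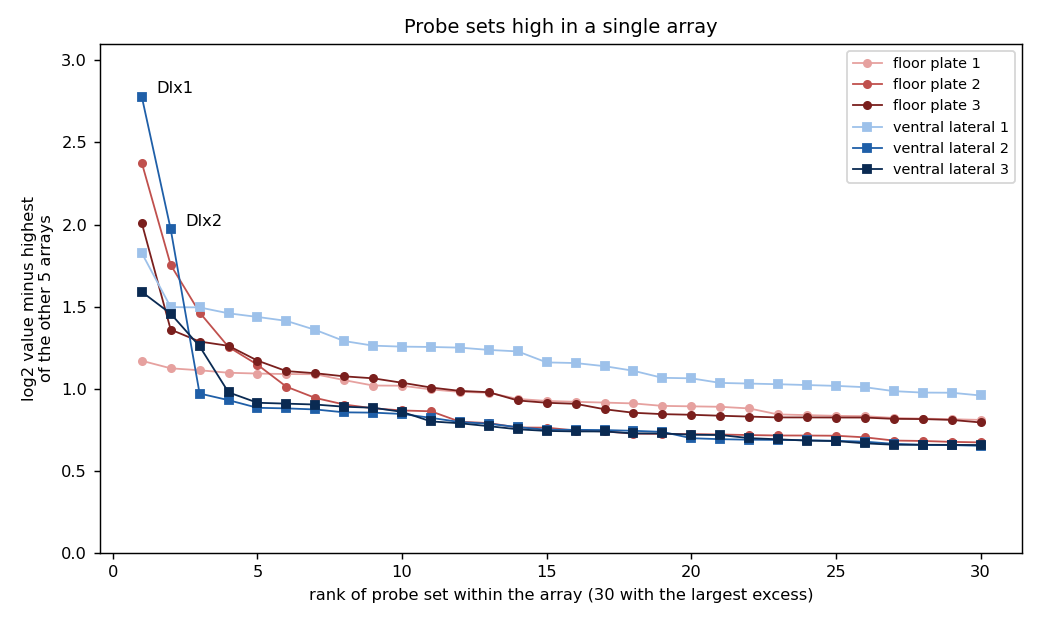
Excess of each array over the highest of the other 5 arrays (y axis, log2 units) for the 30 probe sets with the largest excess in that array (x axis, rank), with circles for floor plate and squares for ventral lateral arrays. In ventral lateral replicate 2, Dlx1 at 2.78 and Dlx2 at 1.97 stand above the third probe set, which is under 1.

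Relatives of the Dlx members did not reach the high values of Dlx1 and Dlx2 in ventral lateral replicate 2. Of the 4 other Dlx genes and Dlx transcripts of the companion list, 0 passed the limma test in either direction, with 0 higher and 1 lower at an unadjusted p under 0.05. Dlx1as, transcribed antisense to Dlx1, had log2 values of -0.28, 0.03 and -0.13 in floor plate replicates 1, 2 and 3, against 0.23, 0.37 and -0.03 in ventral lateral replicates 1, 2 and 3. It was highest in ventral lateral replicate 2 and next in ventral lateral replicate 1, the order of Dlx2, but by far less than Dlx1 or Dlx2. Dlx1as was also the gene lower at an unadjusted p under 0.05 (log2 fold change -0.32, limma adjusted p = 0.295). Dlx3 and Dlx4, Dlx genes known from pharyngeal arches and ectoderm, were between -0.28 and -0.0072 in ventral lateral replicate 2 on their 4 probe sets, within the range of the other arrays or below it.

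The genes most like Dlx1 and Dlx2 over the 6 arrays were listed. The likeness was the Pearson correlation with the mean of the Dlx1 and Dlx2 probe sets, the 2 Dlx probe sets with an SD over the arrays of at least 0.5, among 1692 singly named probe sets with such an SD. The 10 leading genes were Msx3, Kcnk6, 1500004A13Rik, Lbp, Inhbb, Rprd2, Gpc5, Lingo3, Zfp941 and Gng4, with correlations of 0.87 down to 0.74 over 6 arrays that fall into 2 regions. Msx3, a homeobox gene of the dorsal neural tube, had log2 values of -0.71, 0.08 and -0.12 in floor plate replicates 1, 2 and 3, against -0.08, 1.04 and 0.12 in ventral lateral replicates 1, 2 and 3. The 10 genes lay 0.19 to 0.97 above the next array in ventral lateral replicate 2, where only Dlx1 and Dlx2 had an excess over 1. They were picked by likeness to a profile that is highest in that array, so their excess there is no separate result.

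The telencephalon and pharyngeal arch lists, of tissues in which Dlx genes are known, are given by array. The mean of 11 telencephalon factor genes was -0.23, -0.34 and -0.33 in floor plate replicates 1, 2 and 3, against 0.27, 0.34 and 0.29 in ventral lateral replicates 1, 2 and 3, and 2 of these genes were highest in replicate 2. The mean of 13 pharyngeal arch crest and mesenchyme genes was 0.03, 0.25 and 0.07 in floor plate replicates 1, 2 and 3, against -0.31, -0.0030 and -0.12 in ventral lateral replicates 1, 2 and 3. Within that list the collagen genes of connective tissue were high in both replicates numbered 2. Col3a1 (probe set 1427884_at) was at -0.25, 1.24 and -0.02 in floor plate replicates 1, 2 and 3, against -0.31, 1.12 and 0.02 in ventral lateral replicates 1, 2 and 3. In floor plate and ventral lateral replicates 2, Dlx1 was at 0.10 and 2.88, and Col3a1 was at 1.24 and 1.12. A list mean can hide a rise of single genes, and the part of such tissue in the Dlx values was not tested.

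Emx2 was 8.82-fold lower in floor plate, the widest regional difference among the members. Its log2 values were -2.28, -0.84 and -3.09 in floor plate replicates 1, 2 and 3, against 1.44, 0.84 and 0.92 in ventral lateral replicates 1, 2 and 3. The lowest ventral lateral value lay 1.68 above the highest floor plate value, which was that of replicate 2. The mean was -2.07 ± 1.14 (SD, n = 3) in floor plate, against 1.07 ± 0.33 (SD, n = 3) in ventral lateral tissue, and the log2 fold change was -3.14 (SE 0.50, 95% confidence interval -4.31 to -1.97, limma adjusted p = 0.0127). It stayed past the threshold in 14 of 17 alternatives and missed it without floor plate replicate 1 (limma adjusted p = 0.0661) and without ventral lateral replicate 1 (0.0592), and at the stricter adjusted p threshold of 0.01, over a range of 0.00164 to 0.0661. Emx2os, the antisense transcript of Emx2, had log2 values of -0.31, -0.22 and -0.07 in floor plate replicates 1, 2 and 3, against 0.70, 0.61 and 0.07 in ventral lateral replicates 1, 2 and 3, and did not pass (log2 fold change -0.67, limma adjusted p = 0.0844). Emx1, the other Emx gene, had log2 fold changes of -0.08 and -0.02 on its 2 probe sets, neither of which passed.

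Barhl2 was 5.50-fold lower in floor plate, close to the threshold. Its log2 values were -2.80, -0.44 and -2.27 in floor plate replicates 1, 2 and 3, against 0.93, 0.51 and 0.44 in ventral lateral replicates 1, 2 and 3. The regions were separated by 0.88, with floor plate replicate 2 again the nearest. The mean was -1.84 ± 1.24 (SD, n = 3) in floor plate, against 0.62 ± 0.27 (SD, n = 3) in ventral lateral tissue, and the log2 fold change was -2.46 (SE 0.54, 95% confidence interval -3.71 to -1.21, limma adjusted p = 0.0459). It passed in 8 of 17 alternatives, with adjusted p-values of 0.00125 to 0.159, and in 1 of the 6 fits that left out a sample. That fit left out floor plate replicate 2 and gave a log2 fold change of -3.16 (limma adjusted p = 0.00125). The replicate number as a block gave limma adjusted p = 0.0525 for Barhl2.

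Barhl1, the other BarH-like gene, did not pass on either probe set. Probe set 1418811_at had log2 values of -0.94, 0.63 and -1.59 in floor plate replicates 1, 2 and 3, against 0.16, 0.20 and -0.16 in ventral lateral replicates 1, 2 and 3. Floor plate replicate 2 was the highest of the 6 arrays there, while floor plate replicates 1 and 3 were the lowest (log2 fold change -0.70, SE 0.49, limma adjusted p = 0.564). Probe set 1418812_a_at had log2 values of -0.60, 0.08 and -1.56 in floor plate replicates 1, 2 and 3, against 0.27, 0.24 and -0.08 in ventral lateral replicates 1, 2 and 3 (log2 fold change -0.84, SE 0.36, limma adjusted p = 0.309). The probe sets shared the order of the floor plate replicates, with replicate 2 above replicate 1 and replicate 1 above replicate 3. Without floor plate replicate 2, probe set 1418811_at passed (log2 fold change -1.33, limma adjusted p = 0.0242, against a range of 0.0242 to 0.873 over the alternatives), while 1418812_a_at did not (log2 fold change -1.22, adjusted p = 0.075). Without floor plate replicate 3 the log2 fold change was -0.22 on 1418811_at (limma adjusted p = 0.873) and -0.40 on 1418812_a_at (limma adjusted p = 0.472).

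**Figure D3:**
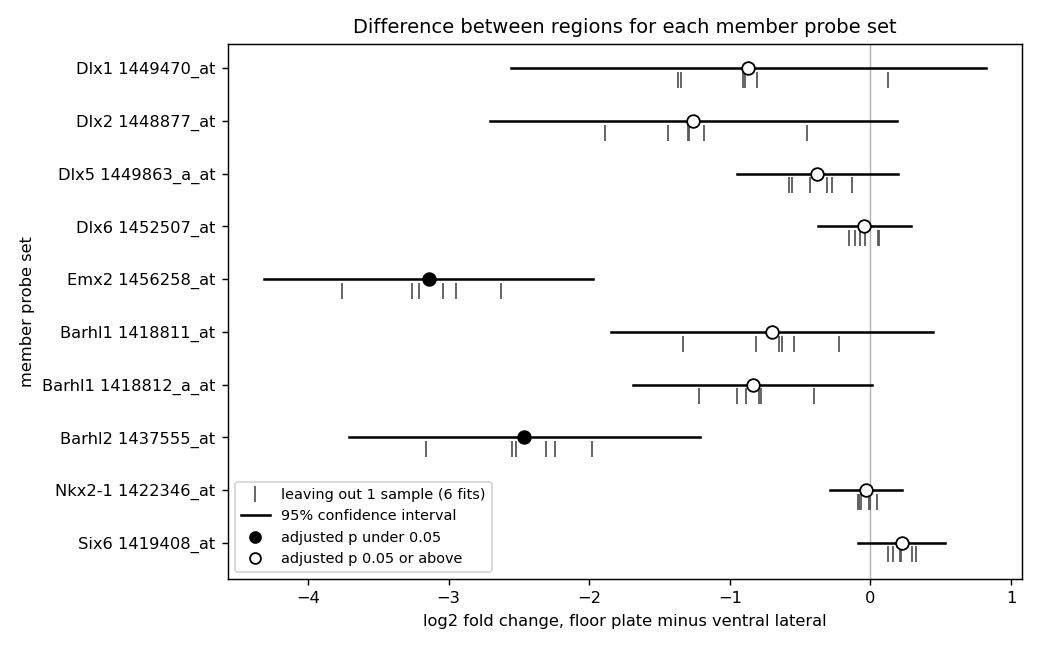
Log2 fold change, floor plate minus ventral lateral (x axis), for each member probe set (y axis), with the 95% confidence interval as a line and the 6 fits that each leave out 1 sample as ticks under it. Filled points have an adjusted p under 0.05, which holds for Emx2 at -3.14 and Barhl2 at -2.46, and the tick of Dlx1 above 0 is the fit without ventral lateral replicate 2.

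Floor plate replicate 2 was the highest floor plate array for Emx2, Barhl2 and both Barhl1 probe sets. It lay above the next floor plate array by 1.44 for Emx2, 1.83 for Barhl2, and 1.56 and 0.67 for the Barhl1 probe sets. Among the 903 probe sets lower in floor plate, replicate 2 was the highest floor plate array in 411, replicate 1 in 272 and replicate 3 in 220. Floor plate replicate 2 was also the highest floor plate array for 5 of 5 pan-neuronal genes, with list means of -0.34, -0.02 and -0.22 in floor plate replicates 1, 2 and 3, against 0.37, 0.17 and -0.04 in ventral lateral replicates 1, 2 and 3. The same held for 6 of 6 blood and vessel genes, with list means of -0.06, 0.21 and -0.06 in floor plate replicates 1, 2 and 3, against -0.13, 0.11 and -0.0015 in ventral lateral replicates 1, 2 and 3. Other lists varied, with 2 of 11 telencephalon, 1 of 11 hypothalamus and optic, and 1 of 7 midbrain GABAergic selector genes. The ventral progenitor and hindbrain lists had 1 of 6 and 0 of 5 such genes. The diencephalon and forebrain GABAergic partner lists had 4 of 8 and 4 of 6. The other Dlx, pituitary and pharyngeal arch lists had 3 of 4, 2 of 3 and 6 of 13. The floor plate, midbrain and isthmus, and surface ectoderm lists had 3 of 8, 2 of 10 and 1 of 6. The share over all genes was not counted. In ventral lateral samples Emx2 and Barhl2 were highest in replicate 1, the array with the lowest mean of the midbrain and isthmus list, though not every gene of that list was low there. Without that array the log2 fold change was -2.95 for Emx2 and -2.31 for Barhl2, and Barhl2 then had a limma adjusted p of 0.159. The part of either array's tissue in these values was not tested.

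Nkx2-1 and Six6, factors of the ventral forebrain and eye, were nearly flat. Nkx2-1 had log2 values of 0.15, -0.01 and -0.03 in floor plate replicates 1, 2 and 3, against 0.01, -0.03 and 0.23 in ventral lateral replicates 1, 2 and 3. The 6 arrays spanned 0.25, the smallest span among the members, with the regions mixed (log2 fold change -0.03, 95% confidence interval -0.29 to 0.22, limma adjusted p = 0.924). Six6 had log2 values of -0.07, 0.15 and 0.34 in floor plate replicates 1, 2 and 3, against -0.11, 0.07 and -0.21 in ventral lateral replicates 1, 2 and 3. It was the only member probe set with a positive log2 fold change, and its regions overlapped (0.22, 95% confidence interval -0.09 to 0.53, limma adjusted p = 0.486). Leaving out 1 sample gave Six6 a log2 fold change of 0.12 (without floor plate replicate 3) to 0.33 (without floor plate replicate 1), and none of these fits passed.

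Genes listed as telencephalon, hypothalamus and optic, or diencephalon factors were set beside the members, in lists chosen with earlier results known. A list name does not mean that its genes are limited to that region. Of 11 telencephalon factor genes 4 were lower in floor plate and 0 higher, with 5 lower and 0 higher at an unadjusted p under 0.05. Nr2e1, an orphan nuclear receptor gene, led with a log2 fold change of -3.94 (limma adjusted p = 0.00724), followed by Sp8 (-2.28) and Otx1 (-1.24). The count was 2 without ventral lateral replicate 1 or replicate 3, and Otx1 passed in 1 of the 6 fits that left out a sample. Most genes of the telencephalon list did not pass, among them Tbr1 (log2 fold change -0.02), Gsx2 (0.01) and Lhx8 (0.30). Nr2e1 had log2 values of -2.99, -0.99 and -2.68 in floor plate replicates 1, 2 and 3. Floor plate replicate 2 thus lay nearest to the ventral lateral arrays for Nr2e1, as it did for Emx2. Sp8 went the other way, with -0.76, -1.19 and -1.06 in floor plate replicates 1, 2 and 3. Otx1 was highest among the floor plate arrays in replicate 1, at -0.28. Of the 11 telencephalon genes, 2 were highest among the floor plate arrays in replicate 2. Of 11 hypothalamus and optic factor genes 3 were lower, namely Six3 (-4.79), Lhx2 (-4.68) and Otp (-1.52), and 0 were higher, with 2 higher at an unadjusted p under 0.05 and 1 past the threshold when ventral lateral replicate 2, or replicate 3 of floor plate, was left out. Of 8 diencephalon factor genes 4 were lower, led by Lhx9 (-4.47), Pou4f1 (-2.27) and Tcf7l2 (-2.15), and 0 were higher, with 1 higher at an unadjusted p under 0.05. Tcf7l2 passed on 4 of its 4 probe sets and kept a called probe set in 6 of the 6 fits that left out a sample. These values are those of the probe set with the largest change. With each gene's probe sets averaged, the log2 fold change was -2.06 for Nr2e1, -2.43 for Six3 and -0.75 for Otp, each past the threshold. Over all genes, 3.25% had a lower probe set and 4.58% a higher one.

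Other genes of GABAergic neurons were lower in floor plate. Of 7 midbrain GABAergic selector genes 7 were lower in floor plate and 0 higher by limma, with 0 higher at an unadjusted p under 0.05. Gata2 led (-4.41), with Gata3 (-4.11) and Tal1 (-4.09). Of 6 genes listed as forebrain GABAergic partners of Dlx 4 were lower and 0 higher, with 1 higher at an unadjusted p under 0.05. They were led by Gad1 (-4.56) and Gad2 (-3.91), which encode GABA-synthesising enzymes, and by the vesicular transporter gene Slc32a1 (-4.48). Slc32a1 passed on 1 of its 4 probe sets, with -0.64, -0.36 and -0.17 on the others, and on the mean of the probe sets it was at -1.41 and Gad1 at -2.99, both past the threshold. The mean of the midbrain selector list was 1.07 in ventral lateral replicate 2, the array with high Dlx1 and Dlx2, against 1.78 and 1.38 in replicates 1 and 3. The mean of the partner list was 0.58 in ventral lateral replicate 2, between 0.46 and 0.64 in replicates 1 and 3.

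**Figure D4:**
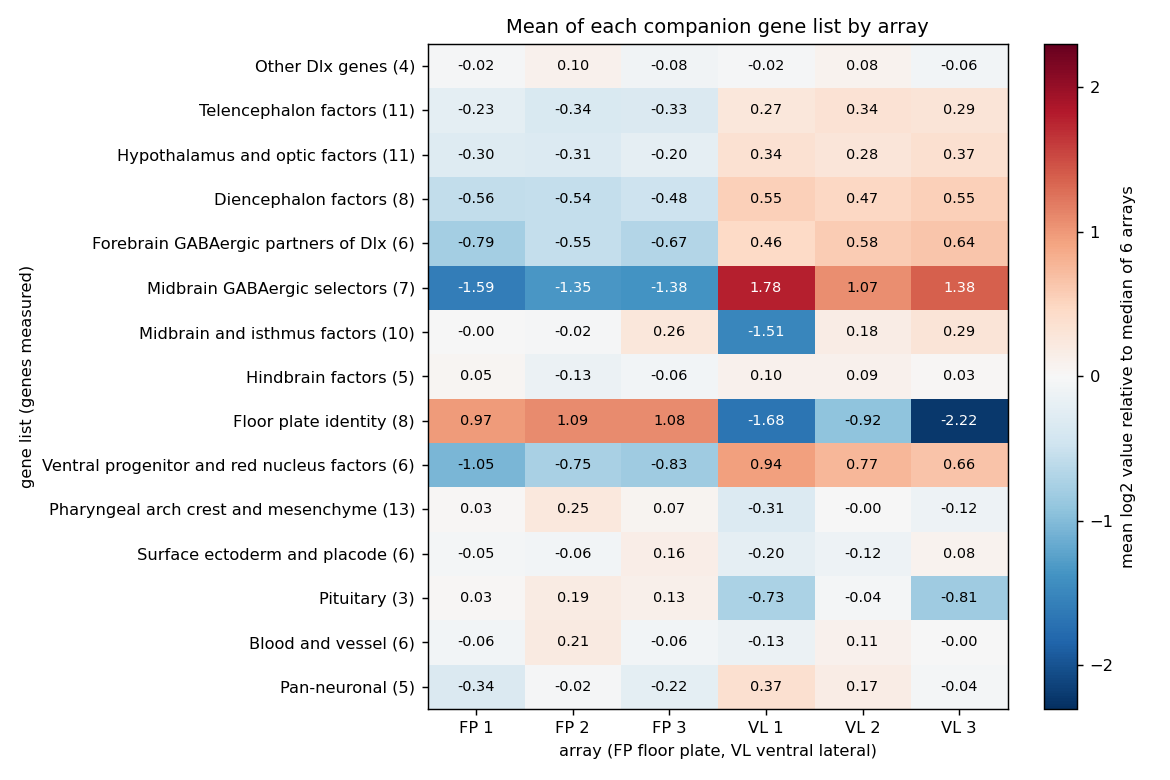
Mean log2 value relative to the median of the 6 arrays (colour and printed number) of each gene list (rows, with the number of genes measured) in each array (columns, FP floor plate and VL ventral lateral). The telencephalon list is at 0.27 to 0.34 in all 3 ventral lateral arrays, and ventral lateral replicate 1 stands apart at -1.51 in the midbrain and isthmus list.

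The remaining lists held genes of the midbrain itself and genes of other tissues, and the presence of other tissue in the pieces was not tested. Of 10 midbrain and isthmus genes 1 was lower, Pax7 (-2.14), and 0 were higher, with 3 higher at an unadjusted p under 0.05. Of 6 ventral progenitor genes 4 were lower, led by Dbx1 (-3.98), Pax6 (-3.92) and Nkx6-2 (-2.88), and 0 were higher, with 1 higher at an unadjusted p under 0.05. Of 13 pharyngeal arch genes 2 were higher, Msx2 (2.43) and Twist1 (2.11), and 0 lower, with 2 lower at an unadjusted p under 0.05. Pan-neuronal genes had 1 of 5 lower, Stmn2 (-0.66), with 4 lower at an unadjusted p under 0.05, and Stmn2 passed in 1 of the 6 fits that left out a sample. Limma called 0 of 5 hindbrain, 0 of 6 surface ectoderm and placode, 0 of 3 pituitary and 0 of 6 blood and vessel genes. At an unadjusted p under 0.05 these lists had 1 lower, 1 higher, 1 higher and 0 genes. With probe sets averaged per gene, Pax7 was at -1.39, Pax6 at -1.62 and Msx2 at 1.52, each past the threshold. In the floor plate list Corin (6.36), Lmx1a (3.71) and Slit2 (3.70) led.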

How the data were processed

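Total RNA of 6 dissected pools (3 per region) was amplified with the NuGEN Ovation V2 system and biotin-labelled, per the labels' protocols. The authors made the deposited values, read here as log2, with RMA, per the submitters' processing notes, which give no version. Their base, centring and direction are not stated. Higher values were taken as more RNA, and the values were centred, since 100% of 45101 probe sets had a median within 1e-05 of 0. Array medians lay between -0.0031 and 0.0045. Of the 45037 non-control probe sets, 34945 had 1 gene symbol in GEO's platform annotation, 932 several and 9160 none; 0 symbols changed through RefSeq's gene table. The authors' genome build was not given in the sources used here, and no array value needed one.

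Each probe set was fitted on its own (floor plate minus ventral lateral) by limma 3.58.1 (lmFit, eBayes; R 4.3.3), and p-values were Benjamini-Hochberg adjusted over 45037 probe sets with a threshold of 0.05. The fit was tested on simulated data. No probe set was filtered out. The number of arrays limits the precision (median SE 0.127). The p-values set the regional difference against the spread between these pools within a region. The labels do not say whether pools shared embryos, so the independence of the pools is not known. An exact permutation test of 3 against 3 cannot go below 0.10 and was not used. Members and the 15 companion lists (122 genes, 109 of them measured) were chosen with earlier results of these data known. A listed gene counted as passed with at least 1 probe set past the threshold; up to 3 per list with the largest change were named, with the value of the probe set that changed most, and the 10 genes most like the Dlx profile. Emx2os, Emx1, Dlx1as, Dlx3, Dlx4 and Col3a1 were named outside that rule after their values were seen. Same-numbered samples had correlations of 0.00964, 0.125 and 0.114 of their deviations from the group means, against -0.149 to 0.0274 for differently numbered samples. The same-numbered value was the highest for floor plate replicates 2 and 3, but not for replicate 1. The numbers were not taken as pairs in the main fit, and a shared effect of the replicate number was not tested. Alternatives were further quantile normalization, centring of arrays, 1 value per gene (mean or most variable probe set), leaving out _x_at and _s_at probe sets, robust eBayes (statmod 1.5.0), array weights, a block for the replicate number, adjusted p thresholds of 0.01 and 0.1, and leaving out each sample. Leaving out both samples numbered 2 was chosen after seeing the data. Python 3.11.15, pandas 2.3.3 and matplotlib 3.10.9 were used.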

Additional observations from a re-analysis of the deposited data

How the results depend on the processing

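The count of member probe sets lower in floor plate was 2, and 1 with robust eBayes, with array weights or with the replicate number as a block (Barhl2 lost in each), and 0 at an adjusted p under 0.01. Leaving out 1 sample gave 0 to 3, with 0 in the fits lacking replicate 1 of either region and 3 without floor plate replicate 2. The count of higher members was 0 in every alternative. Over all probe sets the counts were 1218 higher and 903 lower, 584 and 373 at an adjusted p under 0.01, 1733 and 1419 at 0.1, 1062 and 842 with the replicate block, 705 and 481 without both samples numbered 2, and 753 to 991 higher and 510 to 743 lower without 1 sample. Member probe sets with separated regions numbered 2 lower and 0 higher, 4 and 1 without both samples numbered 2, and 2 to 4 and 0 to 1 without 1 sample. The log2 fold change turned positive for Dlx1 without ventral lateral replicate 2 (0.126) and without both samples numbered 2 (0.0891), for Dlx6 without floor plate replicate 1 (0.0607), ventral lateral replicate 2 (0.0557) or both samples numbered 2 (0.0622), and for Nkx2-1 without ventral lateral replicate 3 (0.0439). Over the fits without 1 sample the log2 fold change was -1.37 to 0.126 for Dlx1, -0.152 to 0.0607 for Dlx6 and -0.0915 to 0.0439 for Nkx2-1. None of these passed in any alternative run. Fits without a sample use fewer samples; the cause of the other changes was not tested. Same-numbered samples did not each correlate over 0.1, and the block is given only as a setting. Signal over background cannot be given for centred values.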

Other observations

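Wnt8b, a Wnt ligand gene known from the forebrain, was named after its values were seen because it held the largest excess of floor plate replicate 2 over the other arrays (2.38 on the log2 scale). Its probe set 1441316_at had log2 values of 0.04, 2.41 and 0.03 in floor plate replicates 1, 2 and 3, against -2.16, -0.03 and -2.15 in ventral lateral replicates 1, 2 and 3. It was thus highest in the floor plate array that lay nearest to ventral lateral samples for Emx2 and Barhl2, and its regional difference did not pass (log2 fold change 2.28, limma adjusted p = 0.185).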
